A study of Mus musculus with 12 samples.

Results

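The protocadherins are cadherin-like cell surface proteins, and their transcripts were followed here in RNA recovered with antibodies to Ythdf1 and Ythdf2. Members were all protein-coding genes whose symbol starts with Pcdh and that held at least 50 counts summed over the 12 libraries. Of 70 such symbols among the 52550 genes of the count table, 69 were protein-coding and 67 were members. Pcdha8 and Pcdhb1 fell under the minimum, and Pcdhgb8 is annotated as a polymorphic pseudogene. The members comprised 13 Pcdha, 21 Pcdhb and 21 Pcdhg genes of the clusters on chromosome 18, and 12 non-clustered genes.

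All libraries came from wild-type C57BL/6 mice. The tissues were the cortex at embryonic day 12.5 and the retina at postnatal day 0. For either tissue there was an input group and 2 immunoprecipitation (IP) groups, one made with an antibody to Ythdf1 and one to Ythdf2, with 2 libraries per group and 12 in all. Both antibodies came from Proteintech. No IP with an unrelated antibody was analysed here, so the input is the only reference. The labels do not say that replicates were separate animals, and p-values then measure only the spread between these samples, which may be technical.

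Clustered protocadherins are expressed in combinations that differ between single neurons, and their homophilic binding gives a neuron an identity that underlies dendrite self-avoidance and tiling. Each Pcdha and Pcdhg transcript joins 1 variable first exon to constant exons shared by its cluster, while Pcdhb genes lack a constant region. The non-clustered members act in adhesion, cell movement and circuit formation. In the retina the gamma cluster is known for its part in starburst amacrine cell self-avoidance and in neuron survival. Ythdf1 and Ythdf2 are cytoplasmic readers of N6-methyladenosine (m6A) in mRNA; the first is known for promoting translation and the second for promoting decay.

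Library totals ran from 19530226 to 40515980 counts, of which 4.65% to 41.1% lay in protein-coding genes. Members held between 2501 and 27070 counts per library. Markers of the labelled tissue were read in 11 libraries: Crx, a photoreceptor transcription factor, was read at 844 to 1474 counts in the retina libraries, and the 5 cortex libraries other than input replicate 1 held 466 to 6341 counts of Eomes. The library labelled cortex input replicate 1 stood apart. Its 5 oligodendrocyte markers summed to 10120 CPM of protein-coding counts (CPM, counts-per-million, are counts scaled to the same total in every library) against 27.6 to 57.5 in the other cortex libraries, its 5 markers of mature excitatory neurons to 6775 against 96.0 to 153, and its 8 cortical progenitor markers to 228 against 3894 to 6017. Its rank correlation with input replicate 2 over protein-coding genes was 0.800, where replicates of the other groups gave 0.951 to 0.974. The tests that use the cortex inputs are therefore also given without it.

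**Figure D1:**
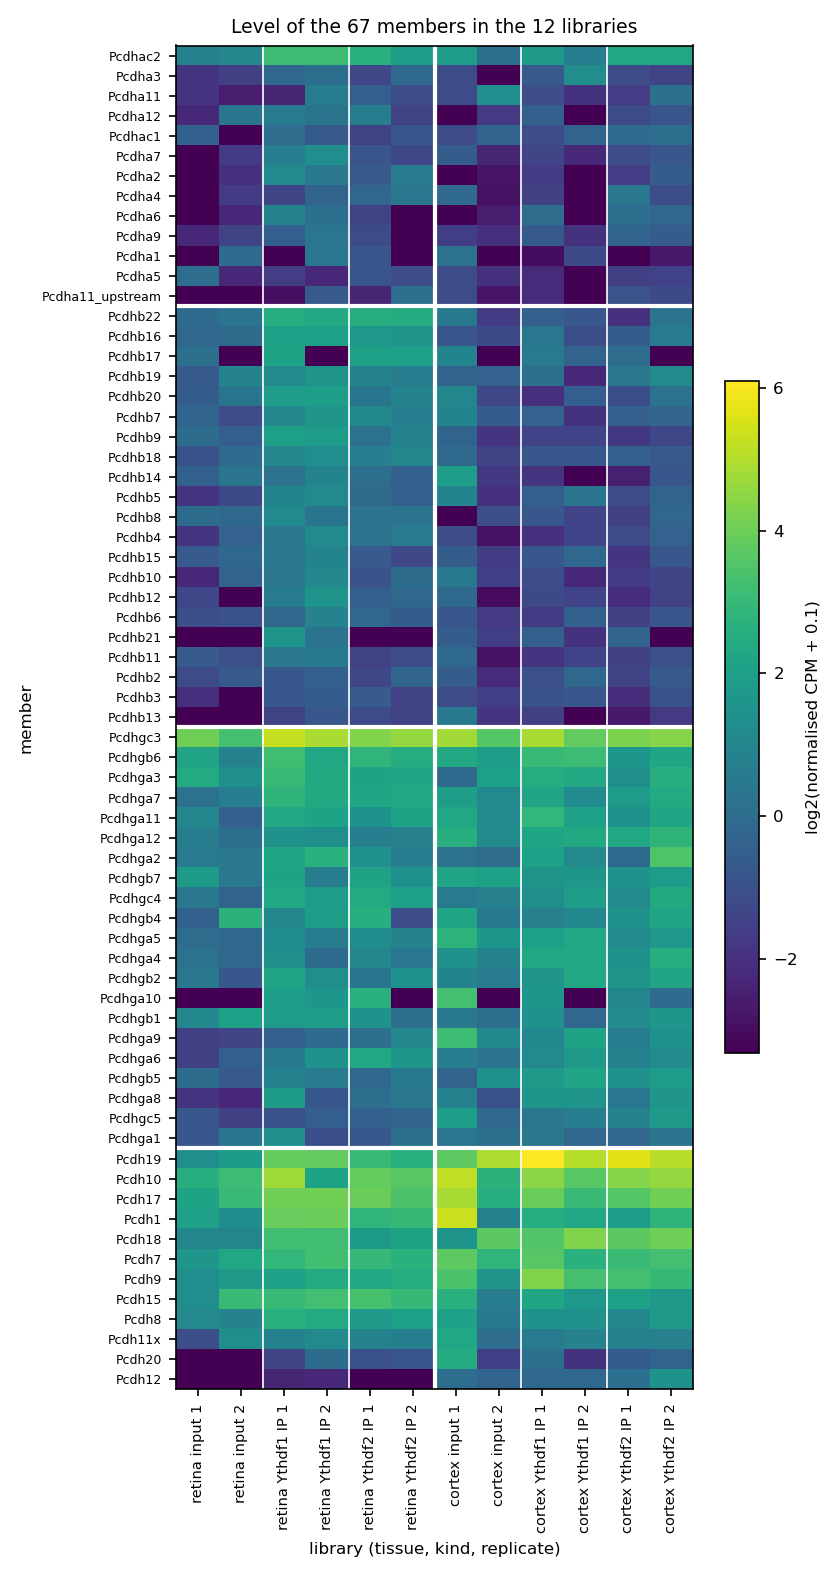
Level of the 67 members (rows, grouped as Pcdha, Pcdhb, Pcdhg and non-clustered and ordered by mean level within a group) in the 12 libraries (columns). Colour gives log2 of CPM, normalised over all 12 libraries, plus 0.1. The retina IP columns are brighter than the retina input columns for most members, and the column of cortex input replicate 1 differs from that of replicate 2. Pcdha11_upstream is the first of 2 genes that carry the symbol Pcdha11.

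The deposited counts of cluster members rest on an assignment of reads to genes that overlap. All 21 Pcdhb members are single-exon genes, and only Pcdhb21 and Pcdhb22 share sequence on their strand, 455 bases. The 13 Pcdha members shared 38.9% to 91.4% of their exonic length with other genes, through 4-exon transcripts with common 3′ exons. The Pcdhg members shared 31.5% to 66.8%. Genes on the opposite strand overlapped exons of some members too, among them Pcdhgc3, Pcdhga7, Pcdhga10, Pcdhb12 and Pcdh7. Among genes with 1 transcript and fewer than 30 counts, 98.5% to 99.2% of the deposited counts per library lay 0 to 1 above the value expected from the deposited FPKM and gene length (tolerance 0.05), so they look like estimates rounded up. For Pcdhg genes the length implied was 1.00 to 1.01 times the full exonic length, shared exons included. Reads in the shared exons may therefore have been divided among members, and the values of single Pcdha and Pcdhg genes are uncertain in a way that those of most Pcdhb genes are not. In 4 cases a member stood at 0 in 1 library and at 50 counts or more in its replicate: Pcdhga10 in 3 groups (0 and 81, 0 and 121, 0 and 122 counts) and Pcdhb17 in the retina Ythdf1 IPs (0 and 134). Neither gene is among those called below.

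Protocadherin transcripts were higher in the retina Ythdf1 IP than in the retina input. Of the 67 members 66 passed the filter on low counts, and 29 of these were called higher at an adjusted p under 0.05, where 17.3% of the 14380 genes tested were called higher. None was called lower, where 20.3% of all genes were. At an unadjusted p under 0.05, 33 members were higher and 0 lower, where 6906 of the 14380 genes passed in either direction. DESeq2 called 27 members higher and 0 lower, where it called 16.9% of all genes higher and 21.4% lower. Calls were made in each group, with 4 of 13 Pcdha, 10 of 21 Pcdhb, 8 of 21 Pcdhg and 7 of 11 non-clustered members. The median log2 fold change was 2.11 for Pcdha, 1.93 for Pcdhb, 1.04 for Pcdhg and 1.34 for non-clustered members, against -0.07 over all genes tested. Without the filter, over all 67 members, the median was 1.94 against -0.10 for all genes. Both IP libraries lay above both inputs for 48 of the 67, as they did for 29.5% of the 18097 genes with at least 50 counts. The tests were edgeR quasi-likelihood fits to the 6 retina libraries, with Benjamini-Hochberg adjustment over all genes tested. With either Ythdf1 IP library left out, 14 or 13 members were called (6.21% and 7.04% of all genes): Pcdh19, Pcdhb22, Pcdh18, Pcdhac2, Pcdh1, Pcdhga7 and Pcdhb16 kept their call with any 1 retina library left out, while Pcdh17, Pcdh20, Pcdha2, Pcdhb5, Pcdhb21, Pcdhga2, Pcdhga6, Pcdhgc3 and Pcdhgc4 each lost it without 1 or either of the Ythdf1 IP libraries. A fit over all 12 libraries called 6, against 3.57% of genes (28, against 13.7%, once cortex input replicate 1 was left out of it). The 5 endothelial markers moved with the IPs too, from 272 and 265 CPM of protein-coding counts in the retina inputs to 1257 and 1283 with Ythdf1 and 751 and 776 with Ythdf2. Most of these counts were Kdr, while Cdh5 stood at 3 to 11 counts and Pecam1 at 0 to 11 in the retina libraries. Their part in the results on members was not tested.

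In the retina Ythdf2 IP the same direction was seen with fewer calls. Of 66 members 13 were called higher, against 9.55% of all genes, and 0 lower, against 10.7%. At an unadjusted p under 0.05, 27 were higher and 0 lower, where 5050 of 14380 genes passed in either direction. DESeq2 called 15 higher and 0 lower, where it called 9.45% of all genes higher and 12.8% lower. The calls comprised 2 of 13 Pcdha, 2 of 21 Pcdhb, 4 of 21 Pcdhg and 5 of 11 non-clustered members. For Pcdhb this is near the share of all genes. Medians were 1.44 for Pcdha, 0.87 for Pcdhb, 0.92 for Pcdhg and 0.97 for the non-clustered genes, against 0.06 over all genes. For 42 of the 67 members both IP libraries lay above both inputs, where 27.5% of genes with at least 50 counts did, and for 2 (Pcdhb11 and Pcdhb15) both lay below. The calls numbered 1 in the fit over all 12 libraries, against 0.282% of genes (11, against 5.82%, without cortex input replicate 1). They numbered 8 over protein-coding genes alone, against 8.09%. All members but Pcdhgc3 stood under 1 FPKM in the retina inputs, where adding 1 before the logarithm shrinks fold changes. By limma-trend on log2(FPKM + 1) 6 of 66 members were called, near the share of all genes, 10%. They numbered 19 and 20 without input replicate 1 and 2, 5 and 7 without Ythdf1 IP replicate 1 and 2, and 1 and 4 without Ythdf2 IP replicate 1 and 2. The share of all genes called higher moved with them, being 19.6% and 19.5%, 4.20% and 4.48%, and 0.893% and 1.57%. Pcdhb22 was the only member called under each of these 6 fits, and the call of Pcdh18 was also lost with DESeq2 (adjusted p = 0.0938). Of the 30 members called in either IP, 12 were called in both. A further 17 were called in the Ythdf1 IP alone and 1, Pcdhga9, in the Ythdf2 IP alone. The 2 comparisons share their input libraries. The share of all genes called in both is not given here, so the overlap is not read as a result about the members.

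**Figure D2:**
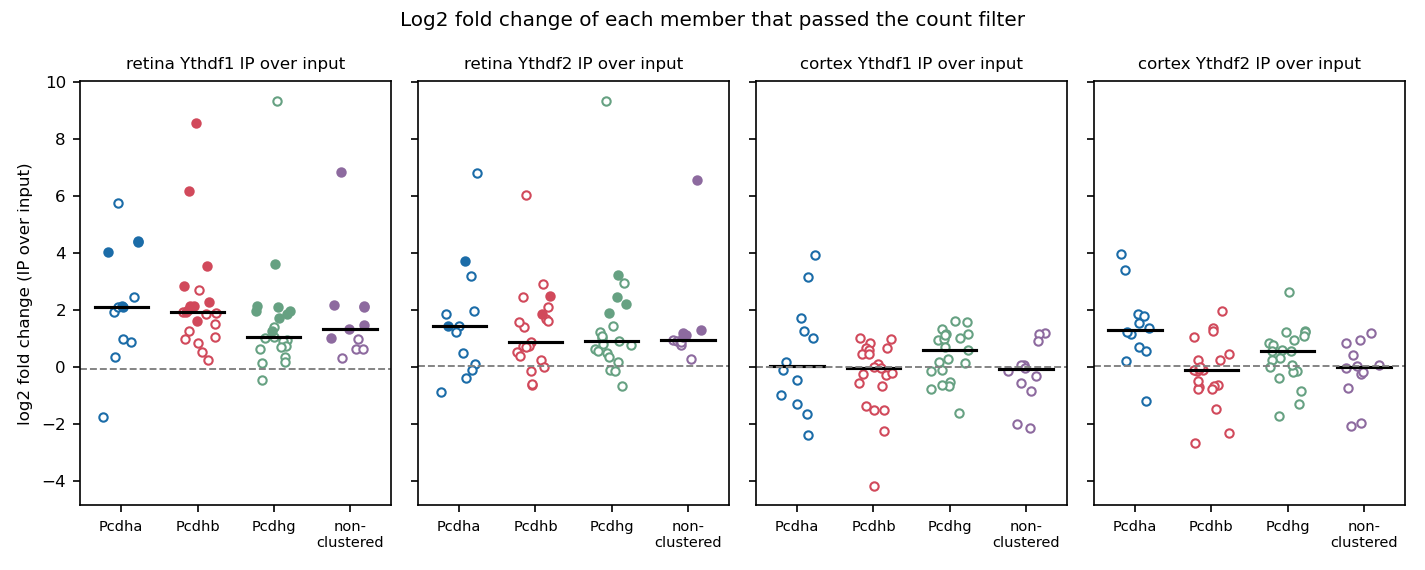
Log2 fold change of each IP over the input of its tissue for each member that passed the filter, by group. Filled points passed an adjusted p of 0.05, open points did not, black bars are group medians and the dashed line is the median of all genes tested. In the retina nearly all points lie above the dashed line (64 of 66 above 0 for Ythdf1 and 56 of 66 for Ythdf2), while in the cortex 34 and 40 of 66 lie above 0 and none is filled. Values above 5 belong to genes listed at or near 0 in the input.

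The summed level of each group shows the same change without dividing reads within a cluster. The 21 Pcdhb members together reached 8.64 and 9.89 normalised CPM in the retina inputs, 32.7 and 33.3 with Ythdf1, and 23.2 and 23.6 in the Ythdf2 IPs. Neither IP overlapped the input, and the mean was 3.56-fold and 2.53-fold that of the input. Pcdha members summed to 3.25 and 4.26 CPM in the inputs, 13.7 and 16.1 with Ythdf1 and 10.02 and 8.22 in the Ythdf2 IPs, which is 3.97-fold and 2.43-fold. Pcdhg members summed to 38.3 and 28.1 in the inputs, 85.0 and 64.2 with Ythdf1 and 66.7 and 57.8 in the Ythdf2 IPs, which is 2.24-fold and 1.87-fold. The non-clustered genes summed to 24.5 and 35.5, 82.7 and 70.6, and 63.0 and 56.5, which is 2.56-fold and 1.99-fold. For each of the 4 groups the inputs lay lowest and the Ythdf1 IPs had the highest mean. With 2 libraries a group an exact permutation test of these sums cannot fall below p = 0.333, and none was run.

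**Figure D3:**
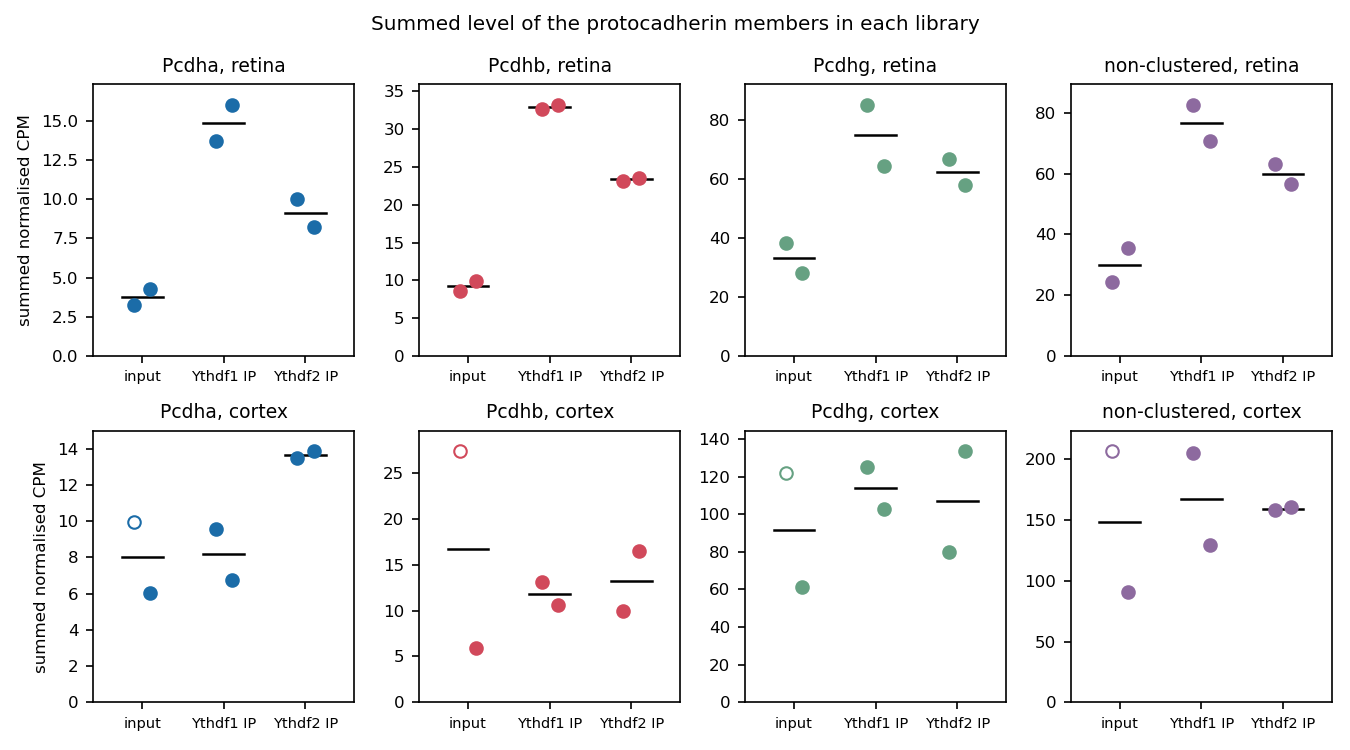
Summed normalised CPM of the members of each group in every library, for retina (top) and cortex (bottom). Each point is 1 library, bars are means of 2, and the open point is the library labelled cortex input replicate 1. In the retina each IP point lies above both input points in all 4 panels; in the cortex the open point is above input replicate 2 in all 4.

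Counts of the single-exon Pcdhb genes made up 17.2% and 23.4% of all clustered member counts in the retina inputs. Their share was 24.9% and 29.3% in the Ythdf1 IPs, which did not overlap the inputs, and 23.2% and 26.3% in the Ythdf2 IPs, which did. Pcdhg held most of the rest, with 76.3% and 66.5% in the inputs, 64.7% and 56.6% with Ythdf1 and 66.8% and 64.5% in the Ythdf2 IPs. Leaving out the C-type isoforms (Pcdhac1, Pcdhac2 and Pcdhgc3 to Pcdhgc5, whose first exons lie next to the constant exons) gave Pcdhb shares of 26.4% and 30.5% in the inputs, 35.9% and 41.2% with Ythdf1, and 31.6% and 38.0% in the Ythdf2 IPs. The difference between the groups' fold changes was not tested. Across the 66 members tested, the log2 fold change in the Ythdf1 IP had a Spearman correlation of -0.02 with the percent of shared exonic length (Pearson -0.02).

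Among Pcdhb genes, Pcdhb22 and Pcdhb16 were the most abundant and the 2 with a call in both IPs. Pcdhb22 (chr18:37517871-37524479, GRCm38) was read at 0.738 and 0.891 normalised CPM in the inputs, 4.27 and 3.82 with Ythdf1, and 4.74 and 4.51 in the Ythdf2 IPs. Both IPs stood apart from the inputs, and the log2 fold changes were 2.31 ± 0.35 (SE; edgeR adjusted p = 0.00129) and 2.499 ± 0.351 (edgeR adjusted p = 0.00161). Pcdhb16 gave 0.679 and 0.668 CPM in the inputs, 3.01 and 2.99 with Ythdf1, and 2.58 and 2.36 in the Ythdf2 IPs. Its log2 fold changes were 2.15 ± 0.38 (edgeR adjusted p = 0.00263) and 1.87 ± 0.38 (edgeR adjusted p = 0.0095). Pcdhb5 was called in the Ythdf1 IP alone, with 0.147 and 0.251 CPM in the inputs and 1.36 and 1.61 in the IPs. Its Ythdf2 IP libraries at 0.707 and 0.525 CPM also lay above the inputs, with an edgeR adjusted p of 0.101. Pcdhb17, the third in abundance, was read at 29 and 0 counts in the inputs, 134 and 0 with Ythdf1 and 78 and 73 in the Ythdf2 IPs, and was not called. The other Pcdhb genes called in the Ythdf1 IP, Pcdhb7, Pcdhb9, Pcdhb12, Pcdhb13, Pcdhb18 and Pcdhb20, had log2 fold changes from 1.62 to 6.20. The highest is that of Pcdhb13, which was listed at 0 in both inputs and at 8 and 13 counts in the Ythdf1 IPs. Against a floor of 3 counts per library it was at least 3.30-fold higher, and replicate 1 alone gives 2.26-fold.

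Pcdhb21 gave the one call between the antibodies. It was listed at 0 in both retina inputs and both Ythdf2 IPs, and at 87 and 29 counts in the Ythdf1 IPs. Against a floor of 3 counts per library it was at least 17.1-fold higher in the Ythdf1 IP than in the input and at least 11.5-fold higher than in the Ythdf2 IP (edgeR adjusted p = 0.00396 and 0.0199). These limits rest on the mean of both Ythdf1 IP libraries, and replicate 2 alone gives 9.68-fold and 6.50-fold. DESeq2 called it in neither comparison, and without Ythdf1 IP replicate 1 its edgeR adjusted p over input was 0.0665. Its last 455 bases overlap the start of Pcdhb22, which was read in all 12 libraries, and the part of that overlap in the zeros was not tested. Of 66 members this was the only one edgeR called between the Ythdf1 and Ythdf2 IPs of the retina, where 2.57% of all genes were called higher in the Ythdf1 IP and 6.56% lower. At an unadjusted p under 0.05, 11 members were higher in the Ythdf1 IP and 0 lower, where 3882 of 14380 genes passed in either direction. DESeq2 called 1 member higher, another one, where it called 5.28% of all genes higher and 8.48% lower. Pcdh18 came nearest, at a log2 difference of 1.11 ± 0.32 (edgeR adjusted p = 0.0576). Leaving out either input library raised the calls to 11, with 14.6% and 14.9% of all genes called higher, and leaving out any of the 4 IP libraries ended them.

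Within the Pcdha cluster, Pcdhac2 was the most abundant member and the one called in both IPs with counts above 40 in every retina library. Pcdhac2 (chr18:37143503-37187657), a C-type isoform, was read at 1.42 and 1.56 CPM in the inputs, 6.51 and 6.63 with Ythdf1, and 5.07 and 3.11 in the Ythdf2 IPs. No IP library overlapped the inputs, and the log2 fold changes were 2.14 ± 0.36 (edgeR adjusted p = 0.00203) and 1.46 ± 0.36 (edgeR adjusted p = 0.0201). The other alpha C-type, Pcdhac1, was read at 19 and 0 counts in the inputs and 5 to 29 in the IPs, and was not called. Pcdha2 was called in both IPs from 0 and 4 counts in the inputs to 65 and 33 with Ythdf1 and 11 and 26 in the Ythdf2 IPs. Pcdha6 and Pcdha7 were called in the Ythdf1 IP, at log2 fold changes of 4.42 and 4.04 that rest on few input counts. Pcdha6 was read at 0 and 3 counts in the inputs and 51 and 26 with Ythdf1, and Pcdha7 at 0 and 6 and at 47 and 62. Pcdha3 and Pcdha11, next in abundance, were not called in either IP. Many Pcdha counts were low: 6 of 13 members stood at 0 in retina input replicate 1 and 2 of 13 in replicate 2, where 2 and 5 of the 21 Pcdhb members did.

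Pcdhgc3 was the most abundant protocadherin of the retina inputs per length, at a deposited FPKM of 2.07 and 1.29. This C-type isoform (chr18:37806364-37841873), whose exons overlap an antisense gene, was read at 14.0 and 7.52 CPM in the inputs, 29.2 and 22.5 with Ythdf1, and 16.3 and 20.3 in the Ythdf2 IPs. It was called in the Ythdf1 IP, at 1.27 ± 0.34 (edgeR adjusted p = 0.0179), and not in the Ythdf2 IP, at 0.77 ± 0.34 (edgeR adjusted p = 0.144). Pcdhgc4, which is required for the survival of some neurons, was read at 1.06 and 0.557 CPM in the inputs, 3.62 and 2.73 with Ythdf1 and 4.37 and 3.19 in the Ythdf2 IPs. Both calls passed, at 1.97 ± 0.43 and 2.22 ± 0.44. Pcdhgc5 had 0.413 and 0.195 CPM in the inputs and 0.316 to 0.612 in the IPs, and was not called. The 3 gamma C-types thus did not share a call, and whether they differ from each other was not tested.

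Of the variable gamma genes, Pcdhga7 was called in both IPs. Its levels were 0.914 and 1.23 CPM in the inputs, 5.24 and 3.96 with Ythdf1, and 3.87 and 4.16 in the Ythdf2 IPs, with log2 fold changes of 2.10 ± 0.36 and 1.90 ± 0.36. Pcdhga6 was also called in both, from 0.207 and 0.473 CPM in the inputs to 0.971 and 2.10 with Ythdf1 and 3.99 and 2.45 with Ythdf2, at 2.15 ± 0.60 and 3.22 ± 0.60. Pcdhga9 was called in the Ythdf2 IP alone, at 2.46 ± 0.69, with 7 and 8 counts in the inputs and 19 and 37 in the Ythdf2 IPs. Its Ythdf1 IP libraries, at 20 and 23 counts, lay above the inputs as well (log2 fold change 1.40 ± 0.69, not called). Pcdhga2 was called in the Ythdf1 IP alone (1.96 ± 0.41), from 1.12 and 1.00 CPM to 3.45 and 4.85. Pcdhga10 was listed at 0 in both inputs and at 116 and 78 counts in the Ythdf1 IPs, at least 29.4-fold higher against the floor, and was not called. All 4732 bases of its exons overlap other genes on either strand, and the part of that overlap in its values was not tested. Of the most abundant gamma genes, Pcdhgb6 and Pcdhga3 were not called in either IP.

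**Figure D4:**
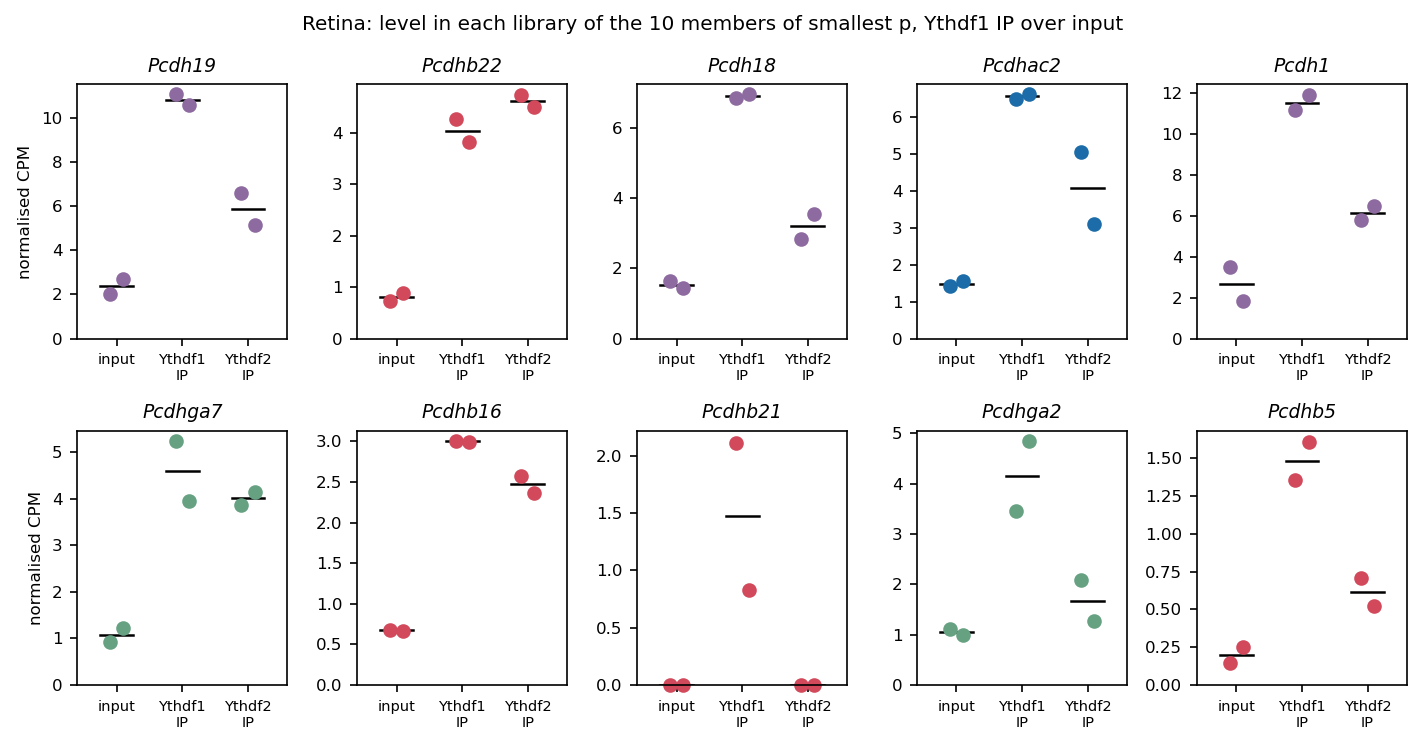
Normalised CPM in each retina library of the 10 members with the smallest p in the Ythdf1 IP over input. Each point is 1 library, black bars are means of 2, and colours separate Pcdha (blue), Pcdhb (red), Pcdhg (green) and non-clustered genes (purple). In all 10 panels both Ythdf1 IP points lie above both inputs; the Ythdf2 IP points do so in 9, the exception being Pcdhb21 at 0.

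The non-clustered genes hold the member with the smallest p in the Ythdf1 IP, Pcdh19 (chrX:133582860-133688987), a delta-type protocadherin whose loss in people causes an epilepsy. It was read at 2.04 and 2.70 CPM in the inputs, 11.1 and 10.6 with Ythdf1, and 6.57 and 5.16 in the Ythdf2 IPs. The 3 groups did not overlap, and the log2 fold changes over input were 2.19 ± 0.31 (edgeR adjusted p = 0.000979) and 1.31 ± 0.31 (edgeR adjusted p = 0.0173). Pcdh18 (chr3:49743296-49757325) was read at 1.62 and 1.45 CPM in the inputs, 6.85 and 6.95 with Ythdf1 and 2.83 and 3.54 in the Ythdf2 IPs, with 2.17 ± 0.33 and 1.05 ± 0.33; the second passed narrowly, at an edgeR adjusted p of 0.0497. Pcdh1, an adhesion protein best known from airway epithelium, was called in both, from 3.48 and 1.81 CPM to 11.1 and 11.9 and to 5.78 and 6.47. Pcdh17 was called in both, from 3.69 and 6.32 CPM to 12.4 and 12.9 and to 12.8 and 9.19. Pcdh20 was listed at 0 in both inputs, at 9 and 24 counts with Ythdf1 and at 8 and 9 with Ythdf2, which is at least 5.28-fold and 4.22-fold higher against the floor, and both calls passed. Ythdf1 IP replicate 1 alone gives 2.54-fold for the first limit and replicate 2 alone 8.01-fold. Pcdh8 and Pcdh7 were called in the Ythdf1 IP, at 1.47 ± 0.35 and 1.02 ± 0.34. Pcdh10, second in abundance, was not called: its Ythdf1 IP libraries stood at 20.2 and 3.30 CPM, on either side of the inputs at 5.10 and 6.88.

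Coding stretches of 5 of these non-clustered transcripts are shown because m6A is deposited in short motifs of which GGACT (with U for T in RNA) is the form best known to be methylated. For each gene the 90-base window of the coding sequence with the most GGACT was taken from the GENCODE M21 transcripts (GRCm38) and read on the transcript strand, with GGACT in capitals. The first 4 genes were called in the Ythdf1 IP and Pcdh10 was not.
Pcdh19 (chrX:133588306-133588395, minus strand): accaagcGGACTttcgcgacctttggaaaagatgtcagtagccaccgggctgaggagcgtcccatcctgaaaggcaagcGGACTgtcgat
Pcdh18 (chr3:49756361-49756450, minus strand): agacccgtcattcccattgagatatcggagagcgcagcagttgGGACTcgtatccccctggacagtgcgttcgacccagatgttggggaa
Pcdh17 (chr14:84447216-84447305, plus strand): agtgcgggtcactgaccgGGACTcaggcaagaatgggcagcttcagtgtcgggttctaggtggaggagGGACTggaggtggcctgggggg
Pcdh7 (chr5:57720792-57720881, plus strand): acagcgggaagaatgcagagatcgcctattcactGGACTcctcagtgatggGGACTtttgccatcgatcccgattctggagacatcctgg
Pcdh10 (chr3:45380180-45380269, plus strand): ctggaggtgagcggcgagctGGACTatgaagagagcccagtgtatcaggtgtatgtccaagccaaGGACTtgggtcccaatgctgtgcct
The coding sequence of Pcdh10 holds 9 GGACT, that of Pcdh19 3, that of Pcdh18 4, that of Pcdh17 7 and that of Pcdh7 6. The other non-clustered genes not called in the Ythdf1 IP, Pcdh9, Pcdh15 and Pcdh11x, hold 4, 6 and 7.

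All 67 members hold GGACT on the sense strand of their longest coding transcript, as do 93.1% of the 14103 protein-coding transcripts examined. Its median density per kilobase was 0.56 in Pcdha, 1.34 in Pcdhb, 0.99 in Pcdhg and 1.09 in non-clustered members, against 1.05 over all. Across the 66 members tested, the log2 fold change had a Spearman correlation of -0.07 with this density in the Ythdf1 IP (Pearson -0.06) and of -0.12 in the Ythdf2 IP (Pearson -0.12). With the GC content of the transcript the values were -0.13 (Pearson -0.11) and -0.02 (Pearson -0.00193). Members of 1 cluster share sequence, so these points are not independent. A match is only a match of letters, and methylation was not measured here.

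Transcript length moved with the IPs over all genes. Over 14361 genes tested with a known length, the log2 fold change had a Spearman correlation with exonic length of 0.31 in the retina Ythdf1 IP (Pearson of the log10 length 0.35) and 0.41 in the Ythdf2 IP (Pearson 0.42). Exonic length ran from 2801 to 23773 bases among members. Of protein-coding genes of 3000 to 5000 bases, 18.4% were called higher in the Ythdf1 IP, as were 13 of the 25 members of that length. From 5000 to 8000 bases the share was 23.8%, against 12 of 30 members, and from 8000 bases 27.7%, against 4 of 8. In the Ythdf2 IP the same bins gave 9.41%, 14.3% and 18.1%, against 1 of 25, 9 of 30 and 3 of 8 members. The median log2 fold change of members in the middle bin was 1.77 with Ythdf1 and 1.14 with Ythdf2, where all protein-coding genes gave 0.32 and 0.37. Among the members themselves the Spearman correlation with length was -0.20 and -0.03 (Pearson -0.19 and -0.09).

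**Figure D5:**
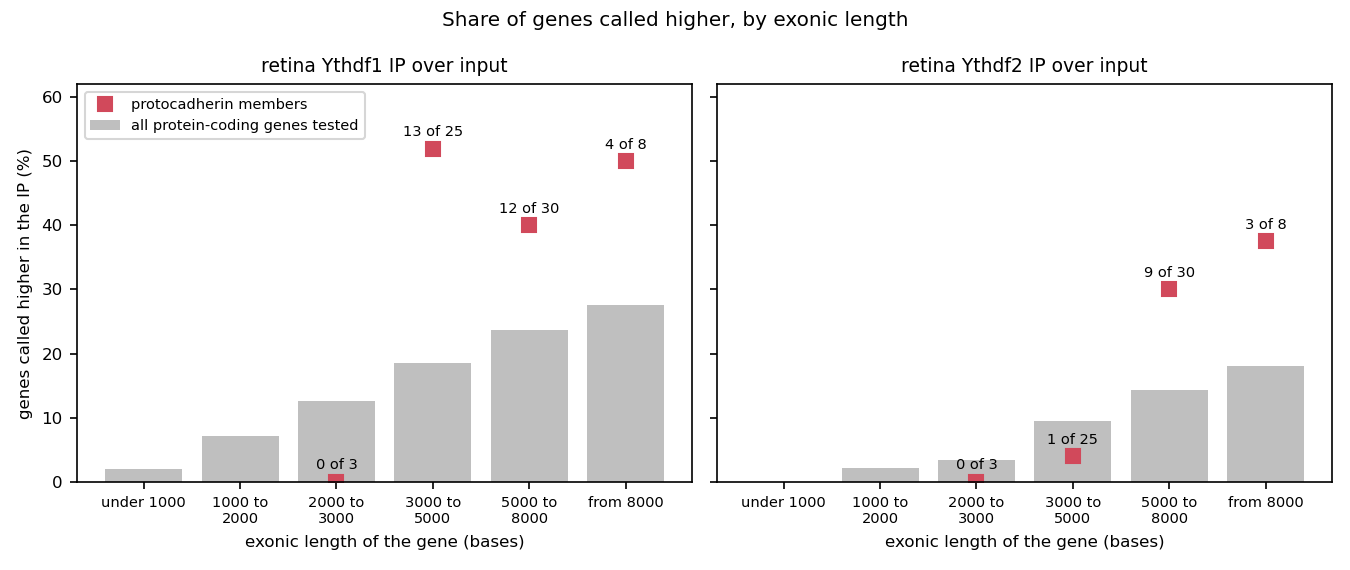
Percent of genes called higher in each retina IP over input, by exonic length. Grey bars are all protein-coding genes tested in the bin and red squares are the protocadherin members, with their number called of those tested. In the Ythdf1 IP the squares of the 3 bins from 3000 bases lie above the bars; in the Ythdf2 IP 1 of 25 members of 3000 to 5000 bases was called and its square lies below the bar.

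In the cortex no member was called in either IP by edgeR. In the Ythdf1 IP 0 of 66 members and 0% of 17611 genes passed. At an unadjusted p under 0.05 there were 0 members, where 1537 genes passed in either direction. DESeq2 and limma-trend called 0 members, where DESeq2 called 0.511% of genes higher and 1.7% lower. The Ythdf2 IP gave the same member counts, 0 of 66 against 0%, as did the Ythdf1 against the Ythdf2 IP, again 0 against 0% of genes. Unadjusted, 1984 genes passed in the Ythdf2 IP and 316 between the IPs. Without cortex input replicate 1 that last comparison also gave 0 members, against 0.874% of genes. Both IP libraries lay above both inputs for 12 of 67 members with Ythdf1 and for 16 with Ythdf2, where 21.1% and 26.8% of genes with at least 50 counts did. Against input replicate 2 alone they lay above for 43 and 48 of 67, and for 33.8% and 40.3% of such genes. Median log2 fold changes in the Ythdf1 IP were 0.03 for Pcdha, -0.01 for Pcdhb, 0.62 for Pcdhg and -0.07 for the non-clustered genes. In the Ythdf2 IP they were 1.32, -0.11, 0.57 and 0.01.

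The cortex inputs disagreed on the members. Pcdh1 stood at 49.6 normalised CPM in input replicate 1 and 2.06 in replicate 2, with 4.42 to 8.68 in the 4 IPs. Pcdh10 stood at 45.2 and 8.16, with 15.9 to 30.6 in the IPs, and Pcdh17 at 35.7 and 7.52, with 10.3 to 21.3. In these 3 genes the IPs lay between the inputs on this scale, where the scaling factors of input replicates 1 and 2 were 0.1895 and 2.173. By deposited FPKM replicate 1 was the lower input for Pcdh10 (0.524 against 1.04) and Pcdh17 (0.695 against 1.60), and the higher for Pcdh1 (1.04 against 0.467). The order of the cortex libraries thus depends on the scaling, and the levels that follow are on the same normalised scale. Pcdh19, the most abundant member of the cortex libraries, stood at 16.5 and 37.8 CPM in the inputs, 84.6 and 41.1 with Ythdf1 and 62.6 and 43.1 in the Ythdf2 IPs, all IPs above both inputs, with log2 fold changes of 1.21 ± 0.73 and 0.96 ± 0.73 that did not pass (0.71 ± 0.52 and 0.47 ± 0.51 without input replicate 1). The Pcdhb sum was 27.4 CPM in input replicate 1 and 5.95 in replicate 2, against 13.1 and 10.6 with Ythdf1 and 9.92 and 16.4 in the Ythdf2 IPs. Pcdhb genes held 17.2% of clustered counts in input replicate 1 and 8.10% in replicate 2, and 8.80% to 10.03% in the 4 IPs.

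Without cortex input replicate 1, the fit rests on 1 input library, which is assumed to vary like the other groups. Then 3 members were called higher in the Ythdf1 IP (Pcdha3, Pcdh9 and Pcdhga8), where 1.89% of all genes were, and 1 lower (Pcdha11), where 3.29% were. Pcdh9 rose by a log2 fold change of 2.32 ± 0.51 and Pcdhga8 by 2.74 ± 0.66. Pcdha3 was listed at 0 in the remaining input and at 21 and 45 counts in the IPs. In the Ythdf2 IP 6 members were called higher, against 2.97% of genes, and 0 lower, against 6.43%. These were Pcdhac2 (2.29 ± 0.57), Pcdh10 (1.77 ± 0.48), Pcdhga8, Pcdh9 (1.58 ± 0.49), Pcdh1 (1.66 ± 0.52) and Pcdha3. The medians were then 1.18 for Pcdha, 0.90 for Pcdhb, 0.84 for Pcdhg and 0.98 for the non-clustered genes in the Ythdf1 IP, and 2.21, 1.18, 1.03 and 1.27 in the Ythdf2 IP, with -0.05 and 0.06 over all genes. Without input replicate 2 in its place, 4 members were called higher and 6 lower in each IP, where 17.2% and 12.3% of all genes were called in the Ythdf1 IP and 18.8% and 13.6% in the Ythdf2 IP.

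The enrichment over input was then compared between the tissues, which differ in age as well. No member differed by edgeR for Ythdf1, with 0 of 67 called against 0.00542% of 18458 genes, or for Ythdf2, with 0 of 67 against 0.0325%. At an unadjusted p under 0.05, 14 members for Ythdf1 and 7 for Ythdf2 had the higher enrichment in the retina and 0 in the cortex. In either direction 3064 and 2080 of the 18458 genes passed, and counted in either direction the number of members is near that share. The members that passed all lay in 1 direction, and the counts of all genes are not split by direction here. DESeq2 called 3 and 2 members, all higher in the retina. It called 2.74% and 1.4% of all genes higher in the retina and 3.49% and 1.04% lower. The members' median difference (retina minus cortex, log2) was 1.28 for Ythdf1 and 0.81 for Ythdf2, against -0.08 and -0.13 over all genes. For Ythdf2 it turned to -0.36 with scaling by library totals, where all genes gave -0.57, and to -0.19 without cortex input replicate 1; for Ythdf1 it was 1.38 and 0.75. Pcdh19 gave a difference of 1.09 ± 0.74 for Ythdf1 and 0.34 ± 0.74 for Ythdf2 (1.58 ± 0.58 and 0.81 ± 0.59 without cortex input replicate 1, neither called). Without cortex input replicate 1, 1 member was called for Ythdf1, against 3.52% of genes: Pcdh18, whose log2 enrichment was 2.08 ± 0.51 higher in the retina. For Ythdf2 it was 0 members, against 0.917% of genes. Without cortex input replicate 2 the counts were 17 and 9 of 67, where 25.6% and 21.6% of all genes were called. Calls in the retina and none in the cortex are thus not shown to be a difference between the tissues.

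The inputs themselves differed between the tissues in 5 members. All 5 were lower in the retina, where 4.01% of genes were lower, and 0 were higher, where 3.51% of genes were. At an unadjusted p under 0.05, 17 were lower and 0 higher, where 4893 of 18458 genes passed in either direction. Levels here were normalised over all 12 libraries. Pcdh19 stood at 2.40 and 3.41 CPM in the retina inputs and 13.4 and 30.1 in the cortex inputs (log2 difference -2.91 ± 0.56, edgeR adjusted p = 0.014). Pcdhga5 stood at 0.938 and 0.774 against 6.64 and 2.98, and Pcdhga9 at 0.243 and 0.281 against 8.77 and 2.02. Pcdh12, a protocadherin of vascular endothelium, was listed at 0 in the retina inputs and at 8 and 63 counts in the cortex inputs, at least 7.84-fold lower against the floor. Pcdh20 was listed at 0 against 46 and 21 counts, at least 27.1-fold lower. That limit is carried by cortex input replicate 1, and against replicate 2 alone it is 2.22-fold; for Pcdh12 it is 6.65-fold. In bulk tissue, fewer cells of a type and less RNA per cell cannot be told apart. The 5 endothelial markers, given above for the retina inputs, summed to 485 and 199 CPM of protein-coding counts in the cortex inputs, and Pecam1 was read at 7 and 7 counts against 143 and 368; the part of endothelial cells in the Pcdh12 difference was not tested.

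Without cortex input replicate 1, 8 members were lower in the retina inputs, against 11.1% of genes, and 4 higher, against 8.82%. The 5 named above were among the 8, which were joined by Pcdh18 (-2.84 ± 0.39), Pcdhgb5 (-1.83 ± 0.53) and Pcdha11. The 4 higher were Pcdha3, Pcdhb4, Pcdhb11 and Pcdh15 (1.83 ± 0.61), which is needed for the tip links of hair cells and is also expressed in photoreceptors. Leaving out cortex input replicate 2 raised the calls, and the share of all genes called rose with them. Leaving out any 1 IP library lowered the calls, and the share of all genes called fell too. Leaving out either retina input ended all calls, as did limma-trend on FPKM, and scaling by library totals left 1.

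Other genes were counted from 3 lists, beside the share of all genes called in the retina (17.3% higher and 20.3% lower with Ythdf1, 9.55% and 10.7% with Ythdf2). Of 35 other cadherin superfamily genes, 26 passed the filter in the retina, and 15 were called higher in the Ythdf1 IP and 0 lower, with a median log2 fold change of 1.47. In the Ythdf2 IP 9 were higher and 0 lower, with a median of 0.99. Dchs1 and Fat4, a receptor and ligand pair of giant cadherins in planar polarity and growth control, rose by 2.83 ± 0.30 and 2.66 ± 0.29 in the Ythdf1 IP and by 1.76 ± 0.29 and 1.75 ± 0.28 in the Ythdf2 IP. Of 24 genes for protocadherin promoter choice (insulator, cohesin and DNA methylation genes), 7 were higher and 7 lower with Ythdf1, and 2 higher and 1 lower with Ythdf2. Among them Ehmt1, a histone methyltransferase, was higher in the Ythdf1 IP at 1.24 ± 0.25, and the cohesin subunit Rad21 was lower at -1.73 ± 0.27. Of 24 tested genes for binding and signalling partners, 5 were higher and 6 lower with Ythdf1, and 4 higher and 2 lower with Ythdf2, which for Ythdf1 is near the share of all genes. The focal adhesion kinase gene Ptk2 was higher in the Ythdf1 IP at 1.91 ± 0.31 and the gamma-secretase subunit Psenen lower at -2.02 ± 0.40. In the cortex 0 genes of the 3 lists were called in either IP. Without cortex input replicate 1, which leaves 1 cortex input library, the median log2 fold changes of all genes were -0.05 with Ythdf1 and 0.06 with Ythdf2. Those of 31 other cadherins were 0.19 and 0.43. The 24 promoter choice genes gave -0.28 and 0.08, and the 25 partners 0.13 and -0.15.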

How the data were processed

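RNA immunoprecipitation sequencing was analysed from 12 libraries in 6 groups. Per the submitters' processing notes, STAR 2.5, HTSeq (version not given in the sources used here) and the genome GRCm38 were used. The authors deposited a gene count table whose values look like rounded-up estimated counts, and these were used as deposited, being whole numbers. The authors also deposited FPKM, used for levels per length and 1 alternative. Symbols, exons and transcripts came from GENCODE M21 (GRCm38), which matched 52403 of 52550 identifiers.

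Genes were filtered with filterByExpr (minimum count 10, minimum total 15), scaled by TMM and tested with edgeR 4.0.16 (R 4.3.3) quasi-likelihood fits, two-sided, with Benjamini-Hochberg adjustment over all genes and a threshold of 0.05. Comparisons within a tissue used its 6 libraries, and those between tissues all 12. Standard errors are the size of the log2 fold change over the root of its F statistic. Genes listed at 0 were set against a floor of 3 counts per library, which covers counting error only. Alternatives used DESeq2 1.42.0, limma 3.58.1 on log2(FPKM + 1), other scalings and filters, and each library left out; the script was tested on simulated data. In each comparison the text names the 10 called members of smallest p, the C-types and the 3 most abundant members of each group, and other members by count or after their values were seen. Members, gene lists and tests were chosen with earlier results of these data known.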

Additional observations from a re-analysis of the deposited data

How the results depend on the processing

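In the retina Ythdf1 IP, the calls of higher members (29) numbered 6 in the fit over all 12 libraries and 13 to 34 with 1 library left out. The retina Ythdf2 IP (13 higher) gave 1 over all 12 libraries, 8 over protein-coding genes alone, 6 by limma-trend on FPKM and 1 to 20 with 1 library left out. Members called lower stayed at 0 in both retina IPs under every alternative run. The share of all genes called higher moved too. For Ythdf1 it was 3.57% over all 12 libraries. Without retina input replicate 1 and 2 it rose to 24.2% and 22.3%, where 31 and 34 members were called. Without Ythdf1 IP replicate 1 and 2 it fell to 6.21% and 7.04%, where 14 and 13 members were called. For Ythdf2 it was 0.282% over all 12 libraries, 8.09% over protein-coding genes and 10% by limma-trend. Between the 2 retina IPs, all genes gave 4.09% higher and 3.56% lower with no filter, and 4.59% and 6.61% by limma-trend. Ythdf1 against Ythdf2 IP in the retina (1 call) gave 0 over all 12 libraries, 5 with no filter on low counts, 5 by limma-trend and 0 to 11 with 1 library left out. In the cortex, leaving out 1 library gave 0 to 4 higher and 0 to 6 lower members in the Ythdf1 IP, and 0 to 6 higher and 0 to 6 lower in the Ythdf2 IP. The tissue difference of Ythdf1 enrichment (0) gave 3 by DESeq2, 6 with no filter and 0 to 17 with 1 library left out; that of Ythdf2 (0) gave 2, 4 and 0 to 9. Retina against cortex input (5) gave 1 with library totals, 12 by DESeq2, 11 with no filter, 0 by limma-trend and 0 to 18 with 1 library left out. The cause of these moves was not tested, except that fits with fewer libraries hold fewer samples. Shares of all genes called higher, then lower, follow. For the Ythdf1 tissue difference they were 2.74% and 3.49% by DESeq2 and 1.87% and 1.36% with no filter. For Ythdf2 they were 1.4% and 1.04%, and 1.43% and 0.61%. Between inputs they were 0.412% and 1.53% with library totals and 7.93% and 10.6% by DESeq2. With no filter they were 2.77% and 5.61%, and by limma-trend 0.336% and 0.217%.

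Same-numbered replicates did not pair: the correlations of their deviations within a tissue ran from -0.0821 to 0.128. With a replicate block the calls were 31 and 13 higher in the retina Ythdf1 and Ythdf2 IPs, 1 between them, 0 in the cortex and for the tissue differences, and 4 between inputs. Over all genes this fit called 17.6% and 10.1% higher in the 2 retina IPs, 2.73% higher between them and 2.63% lower between inputs. Leaving out the 2 members split between 0 and 50 counts, and a fit of 11 libraries without cortex input replicate 1, were chosen after seeing the data. Neither of the 2 members was called, so the first could not change the counts of 29 and 13. The second gave 28 and 11, where 13.7% and 5.82% of all genes were called higher. Scaling by library totals moved the median of all genes to 0.08 and 0.27 in the retina Ythdf1 and Ythdf2 IPs, where the members' medians became 1.93 and 1.21. It moved it to -0.59 and 0.72 in the cortex IPs (members 0.28 and 1.69), to -1.33 between them (members -1.37) and to -1.17 between inputs (members -1.15). Depth limits the members listed at 0 most: 3 counts equal 0.074 to 0.154 CPM of library totals.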
